A study of Mus musculus with 14 samples.

Results

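The SR genes encode the serine/arginine-rich splicing factors, and 10 of them (Srsf1, Srsf2, Srsf3, Srsf4, Srsf5, Srsf6, Srsf7, Srsf9, Srsf10 and Srsf11) were taken by name from the 52459 genes of the count tables, together with the m6A peaks that touched their exons. The cells were E14Tg2a mouse embryonic stem cells (mESCs), grown on gelatin with serum and LIF. WT cells carried unedited Mettl14. R255K cells carried a CRISPR-Cas9 knock-in that changes one arginine (R255) of METTL14, a subunit of the m6A methyltransferase, to lysine, and knock-in lines were grown from single colonies. MeRIP-seq, in which an antibody to m6A pulls down fragmented total RNA, comprised 8 untreated libraries (2 IP and 2 input per genotype), and these were available as 1 peak list per genotype. RNA decay was followed in 6 polyA libraries, 1 per genotype at 0, 4 and 8 h of 5 µg/ml actinomycin D, a drug that stops transcription.

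SR proteins bind exonic enhancer sequences through RNA recognition motifs, and their RS domains, rich in arginine and serine, recruit the spliceosome to nearby splice sites. Many of them also travel to the cytoplasm with the mRNA, and SRSF3 and SRSF10 are known partners of the nuclear m6A reader YTHDC1. SR genes commonly limit their own levels by splicing in a "poison" exon with an early stop codon, which sends the transcript to nonsense-mediated decay (NMD). METTL14, with METTL3, places m6A on adenosines within short motifs, of which GGAC is the best known.

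The 6 libraries of the time course held 13812160 to 18813640 counts, and the 10 genes together took 0.267% to 0.356% of them. With 1 library per genotype and time, no difference between genotypes could be tested, and each interval below is a 95% interval for counting error only, in reads without molecular identifiers. Mettl14 itself was at 5.27, 3.38 and 2.26 FPKM (counts scaled to exon length and library total) in WT and at 2.58, 2.03 and 1.497 FPKM in R255K at 0, 4 and 8 h, and gene counts cannot show a codon change. All 10 pluripotency markers were expressed (summed 2657 to 3131 FPKM in WT, 2116 to 2659 in R255K). The 7 markers of 2-cell-like cells summed to 0 to 0.147 FPKM in WT and 5.58 to 7.40 in R255K, and the 8 fibroblast markers to 1.66 to 2.25 and 7.25 to 8.09, with 1 of these at 0 in every library. The summed endoderm list (6 genes) ran from 0.484 to 9.64 FPKM and the mesoderm and neuroectoderm list (7 genes) from 1.03 to 17.2. Genes of chromosome 11, which carries Srsf1 and Srsf2, had a median log2 ratio of R255K to WT of 0.53, 0.59 and 0.73 at 0, 4 and 8 h. The part of these differences in the results on SR genes was not tested, and any difference between the libraries or lines cannot be told apart from the knock-in.

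The m6A peaks on the SR exons are shown first by sequence, to set the motifs near peaks of both genotypes beside those near peaks of 1 genotype. Each line gives 25 bases of the mm10 genome in the direction of transcription. The motif nearest the peak summit is in capitals, with the A before its final C at the centre. GGAC is shown where it lay within 100 bp of the summit, and otherwise AGAC or AAAC.
Srsf2, peak in both genotypes, chr11:116852862-116852886, minus strand: ccctcaaggtGGACaacctgaccta
Srsf4, peak in both genotypes, chr4:131900642-131900666, plus strand: gccgcagcaaGGACaagcggaaggg
Srsf6, exon 1 peak in both genotypes, chr2:162931640-162931664, plus strand: gcctcccggaGGACacccgtgggtc
Srsf11, WT peak with an R255K partner, chr3:158012095-158012119, minus strand: gtgtcccctaAAACaaaggagtgct
Srsf5, peak in WT alone, chr12:80949967-80949991, plus strand: agtggcaattAAACtgtaaataact
Srsf6, exon 6 peak in WT alone, chr2:162934588-162934612, plus strand: acggcaaaggAGACataaagtcaaa
Srsf10, peak in WT alone, chr4:135867119-135867143, plus strand: atttaagaccAAACtgcagctggaa
Srsf1, peak in R255K alone, chr11:88047918-88047942, plus strand: tccgaaccaaGGACatcgaggacgt
Srsf9, peak in R255K alone, chr5:115327316-115327340, plus strand: cgggctgggcGGACgagcgcggcgg

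WT cells had 7 peaks on the exons of 6 SR genes, and R255K cells had 8 peaks on 6, beside 55.8% and 43.0% of all genes tested with an exonic peak. All exonic peaks numbered 13870 in WT and 8818 in R255K, a ratio of 0.636, and the ratio over the SR genes was 1.14. The latter rests on 8 peaks over 7. The 4 WT peaks with a partner met 5 R255K peaks, because 1 wide WT peak on Srsf4 overlapped more than 1. Each list had 3 SR peaks without a partner. Peaks on Srsf3 and Srsf7, both export adaptors of the NXF1 pathway, were found in neither list. A peak is a region where the IP exceeded the input, and its fold enrichment is the height over the local background as MACS2 gives it. The SR peaks were shallow, with a median fold enrichment of 2.55 in WT against 6.17 over all exonic WT peaks, and of 3.04 in R255K against 5.50 over all. Their median -log10 q was 14.6 in WT against 24.8 over all, and 21.4 in R255K against 17.8 over all. Peaks on genes of like expression were not compared.

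Of the 7 WT peaks, 3 had no overlapping R255K peak (42.9%), beside 47.9% of all exonic WT peaks. They lay on Srsf5, Srsf6 and Srsf10. The Srsf5 peak (chr12:80949840-80950133, fold enrichment 3.21) had its summit in the coding sequence of exon 8 of 8, 31 bp before the stop codon. Srsf5 encodes an SR protein with a pair of RNA recognition motifs, as do Srsf4 and Srsf6. The second Srsf6 peak (chr2:162934584-162934827) had a fold enrichment of 1.60, the lowest of all SR peaks, and its summit was 139 bp before the stop codon in exon 6 of 6. The Srsf10 peak (chr4:135867022-135867392) had a fold enrichment of 3.62 and lay in an exon of other transcripts. Its summit was 3192 bp past the stop codon of the coding transcript with the longest coding sequence. SRSF10 is the SR protein that turns into a splicing repressor when it is dephosphorylated in heat shock. None of these 3 summits had a GGAC within 100 bp on the transcribed strand (73.9% of all exonic WT summits without an R255K partner had one), and all 3 had an AGAC or AAAC (83.8% of all exonic WT summits, of which 79.4% had a GGAC).

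The other 4 WT peaks were overlapped in R255K. Srsf2, which encodes the nuclear speckle protein SC35, had a peak in exon 1 with a fold enrichment of 2.14 in WT and 2.62 in R255K. The last exon of Srsf4 had the strongest SR peak of WT, at 5.22, and its R255K partner was at 4.41. A weaker R255K peak at 2.04 also lay under that wide WT peak, in the 3′ UTR. The exon 1 peak of Srsf6 was at 2.27 in WT and 2.58 in R255K, and the peak near the stop codon of Srsf11, whose product contacts U2AF at 3′ splice sites, was at 2.55 and 4.94. For Srsf11 the WT summit lay in the coding sequence, 63 bp before the stop codon. The R255K summit lay outside the exons, 208 bp before it, so the 2 values were taken at different places. Thus 1 of 4 kept peaks had the lower fold enrichment in R255K, against 70.6% of all kept exonic peaks. GGAC was found near 3 of the 4 WT summits, with Srsf11 as the exception, and near 84.4% of all kept exonic WT summits. How the input and IP libraries were combined for each list is not stated, so the spread of these enrichments between replicates is unknown.

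R255K cells had 3 SR peaks with no WT partner, of 8 (37.5%), beside 13.1% of all exonic R255K peaks. With 1 peak list per genotype, the spread of this share is unknown. The peaks lay on Srsf1 (chr11:88047713-88048081, fold enrichment 2.15), Srsf4 (chr4:131873562-131873862, 4.51) and Srsf9 (chr5:115327165-115327411, 3.46). SRSF1 is the SR protein first known for choosing 5′ splice sites, and SRSF9 is its close relative with a short RS domain. All 3 summits fell in exon 1, at 507, 122 and 131 bp from the annotated gene start. Exon 1 also held 2 of the 4 WT summits with an R255K partner and 2 of the 5 R255K summits with a WT partner. The share of all exonic R255K-only summits in a first exon was not computed. In Srsf1 and Srsf9 a GGAC lay within 100 bp of the summit, and in Srsf4 none of GGAC, AGAC and AAAC did. Over all exonic R255K-only summits 71.9% had a GGAC, and over all exonic R255K summits 82.9% had a GGAC and 80.0% an AGAC or AAAC.

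Exon segments of NMD transcripts that lie in no exon of a coding transcript were present in 7 of the 10 genes (13 segments, 2470 bp in all). Other noncoding transcripts, such as those that keep an intron, were not excluded and may also use these segments. Among the segments was one of 456 bp in Srsf3 at chr17:29039454-29039909. None of the 15 peaks touched such a segment. How many would by position alone was not computed, and Srsf3 and Srsf7, with 526 and 462 bp of the segments, had no peak. Srsf1, Srsf2 and Srsf4 share exonic bases with genes on the opposite strand (98 bp with Gm11508, 460 bp with Mettl23 and 288 bp with Mfsd11, and 1532 bp with Gm12992). The library kit was not stated to keep strand, so reads of each pair cannot be told apart, and 6 of the 15 peaks lay partly over such a partner.

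**Figure D1:**
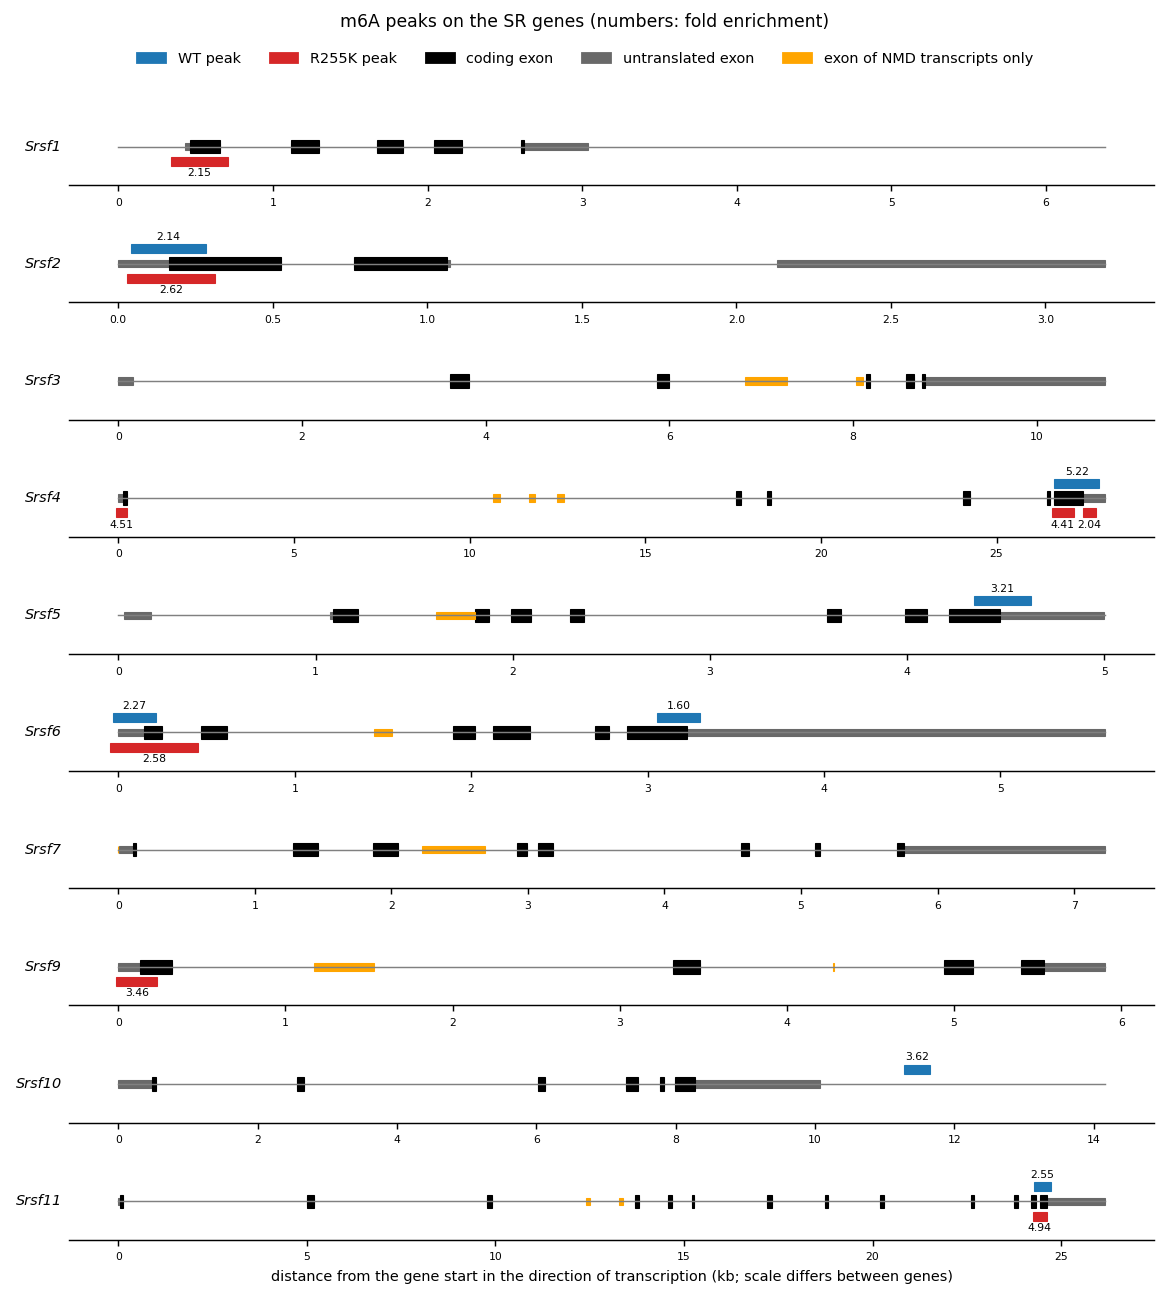
Maps of the 10 SR genes by distance from the gene start (kb, own scale per gene). WT peaks are in blue above and R255K peaks in red below the exons, each with its fold enrichment. Exons are those of the coding transcript with the longest coding sequence. Srsf3 and Srsf7 carry no peak, and the 3 R255K-only peaks lie at the 5′ ends of Srsf1, Srsf4 and Srsf9. No peak meets the orange segments, which are exon parts of NMD transcripts outside the exons of coding transcripts. The overlap expected from position alone was not computed.

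All 10 genes were well expressed and passed the filter of a mean of at least 1 FPKM over the 6 libraries, as did 11327 genes in all. Ranked on FPKM, which is per length of merged exons, Srsf2 was the highest SR gene and Srsf4 the lowest in each of the 6 libraries. Srsf2 stood at 170, 168 and 123 FPKM in WT (0, 4 and 8 h) and at 175, 170 and 149 FPKM in R255K. Srsf4 stood at 14.3, 8.96 and 7.62 FPKM in WT and at 10.8, 9.32 and 7.42 FPKM in R255K. Their means over the 6 libraries exceeded those of 96.5% and 56.7% of the genes tested. The order rests on the length used. Per base of the coding transcript with the longest coding sequence, Srsf1 led at 0 h in WT with 482, ahead of Srsf2 with 265. That transcript has 1209 bp in Srsf1, against 5710 bp of merged exons, and 1899 bp in Srsf2, against 2958 bp. Reads of all transcripts of the gene were divided by it.

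Srsf3, which encodes the shortest SR protein, was at 133, 138 and 119 FPKM in WT and at 111, 136 and 112 FPKM in R255K. It had the narrowest range of the family, with the highest library 1.24 times the lowest. Srsf7, which like Srsf3 links RNA to the export receptor NXF1, was at 158, 154 and 107 FPKM in WT and at 152, 137 and 88.3 FPKM in R255K. In both genotypes its 8 h library was the lowest. Srsf6 was at 113, 110 and 76.3 FPKM in WT and at 108, 102 and 88.2 FPKM in R255K. Scaled to library totals, its R255K library was lower than WT at 0 and 4 h and higher at 8 h, but the 0 h sign turned with GC correction, and the 8 h sign with TMM factors, with median of ratios size factors and against the chromosome median.

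Srsf1 was at 102, 71.6 and 38.8 FPKM in WT and at 88.9, 77.0 and 55.8 FPKM in R255K. It had the widest range of the family, 2.63 times from lowest to highest library, and was lower at each later time in both genotypes. Srsf9 was at 63.0, 73.2 and 69.5 FPKM in WT and at 88.2, 81.3 and 87.3 FPKM in R255K, so that every R255K library was above every WT library, an order that rests on scaling to library totals and turned with TMM factors at 4 and 8 h. Srsf5 was at 68.2, 90.1 and 97.2 FPKM in WT and at 50.6, 64.9 and 63.3 FPKM in R255K, with every R255K library below every WT library. Srsf10 was at 34.0, 29.2 and 17.1 FPKM in WT and at 16.3, 25.6 and 18.4 FPKM in R255K. Its levels fell with time in WT, while in R255K the 0 h library was the lowest of the 6. Srsf11 was at 26.3, 29.3 and 25.8 FPKM in WT and at 21.7, 25.6 and 20.6 FPKM in R255K, with the 4 h library the highest in each genotype.

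**Figure D2:**
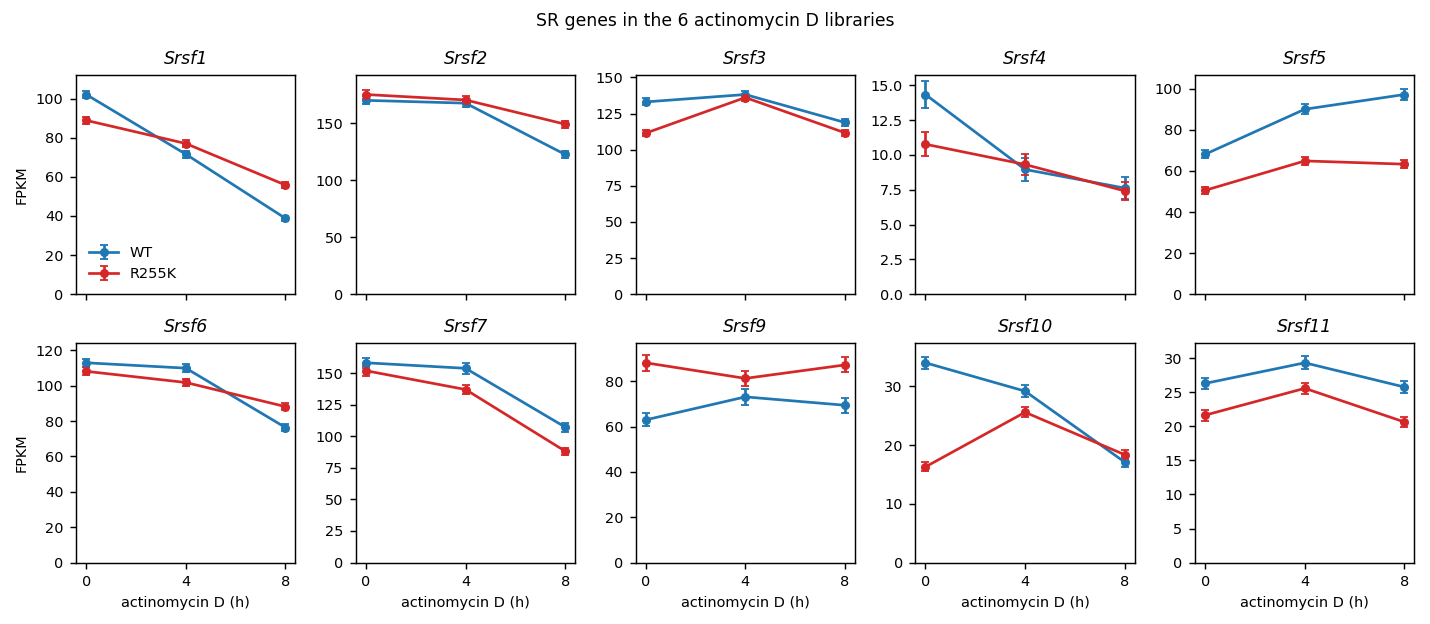
FPKM of each SR gene against hours of actinomycin D (x axis), in WT (blue) and R255K (red), 1 library per point, with bars for the 95% counting interval. Srsf9 lies higher and Srsf5 lower in R255K at all 3 times, on this scaling to library totals, and the Srsf1 and Srsf10 lines cross.

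Untreated R255K and WT cells were compared at 0 h on log2(FPKM + 1), a scale that slightly understates differences of low genes. Srsf10 was the only SR gene past 1.5-fold, at a log2 ratio of -1.02 (interval -1.09 to -0.94), or 2.03-fold lower in R255K. In such bulk libraries, fewer cells that express a gene and less RNA per cell cannot be told apart. Thus 0 of 10 SR genes were past 1.5-fold higher and 1 of 10 was lower, beside 17.2% and 14.9% of all genes tested (32.1% in either direction). Among the 4910 genes with at least the mean FPKM of Srsf4, 27.6% were past 1.5-fold in either direction. The next largest ratios were 0.48 for Srsf9 (0.39 to 0.57), -0.42 for Srsf5 (-0.49 to -0.36) and -0.38 for Srsf4 (-0.52 to -0.24). The other 6 lay between -0.27 and 0.04. The SR median was -0.23, and that of all genes 0.06, a gap of -0.28 that was -0.29 with TMM factors and -0.30 with median of ratios size factors, but 0.17 after correction for exon GC content.

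GC content moved with the 0 h ratio. The 2832 genes of lowest exon GC (up to 45.2%) had a median log2 ratio of -0.36, and the next groups by GC had 0.04, 0.19 and 0.27. Of the 10 SR genes, 7 belonged to that lowest group, with Srsf10 the lowest of the family at 37.8%. With the trend over GC removed, Srsf10 was at -0.32 and 0 of 10 SR genes were past 1.5-fold (15.3% of all genes were higher and 11.1% lower), and Srsf1, Srsf3, Srsf5, Srsf6, Srsf7 and Srsf11 changed sign. Srsf9 (0.31) and Srsf4 (-0.56), the members with the highest GC at 53.7% and 54.1%, kept theirs. Which step of the experiment the trend arose in was not tested. Against the other genes of chromosome 11, Srsf1 was at -0.73 and Srsf2 at -0.49.

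**Figure D3:**
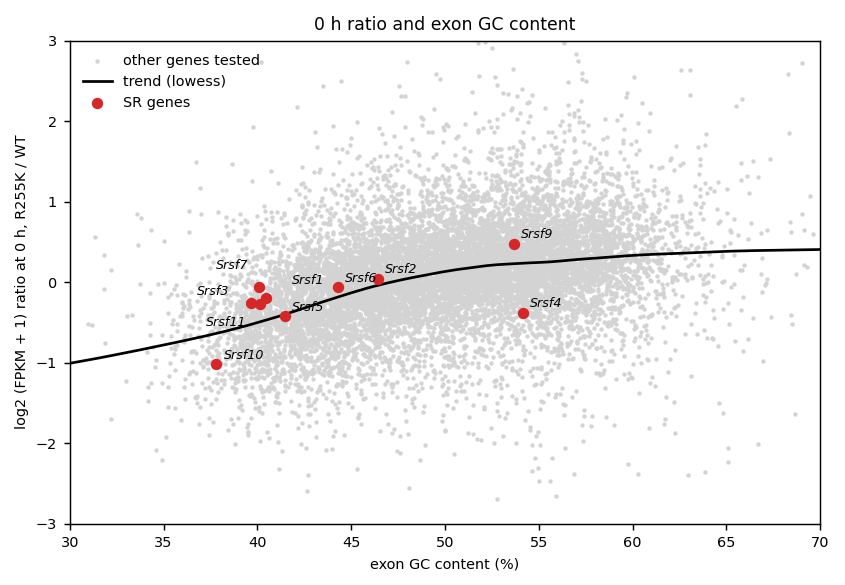
Log2 ratio of FPKM + 1 at 0 h, R255K over WT (y axis), against exon GC content in percent (x axis), with SR genes in red, other genes tested in grey and their lowess trend in black. Most SR genes sit at the GC-poor end, where the trend is below 0, and Srsf10, the lowest in GC, is at -1.02.

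At 4 h no SR gene was past 1.5-fold in either direction (26.0% of all genes were higher and 7.58% lower, 33.6% in all, or 27.3% of those with at least the mean FPKM of Srsf4). Srsf5 had the largest ratio at -0.47 (-0.52 to -0.41), and Srsf10 had come to -0.18 (-0.25 to -0.11). The SR median was -0.07 against 0.17 for all genes.

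At 8 h Srsf5 alone was past 1.5-fold, at -0.61 (-0.67 to -0.56) or 1.53-fold lower, so that 1 of 10 was lower (8.77% of all genes) and 0 of 10 higher (37.7%), beside 46.4% of all genes in either direction and 41.5% of those with at least the mean FPKM of Srsf4. With TMM factors 3 of 10 were lower and 0 higher, beside 2647 lower and 2910 higher of the 11327 genes tested. With median of ratios size factors 4 of 10 were lower and 0 higher, beside 3348 and 2434. Srsf1 followed at 0.51 (0.45 to 0.58), or 1.43-fold higher, and turned to below 0 with median of ratios size factors and against chromosome 11. The SR median was 0.03, and that of all genes 0.34. The gap of -0.31 was -0.39 with TMM factors and -0.42 with median of ratios size factors. The scaling shifted all genes at this time, and of the genes past 1.5-fold 81.1% were higher with library totals, 52.4% with TMM factors and 42.1% with median of ratios size factors (53.5%, 49.7% and 43.2% at 0 h, and 77.4%, 56.6% and 52.0% at 4 h).

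**Figure D4:**
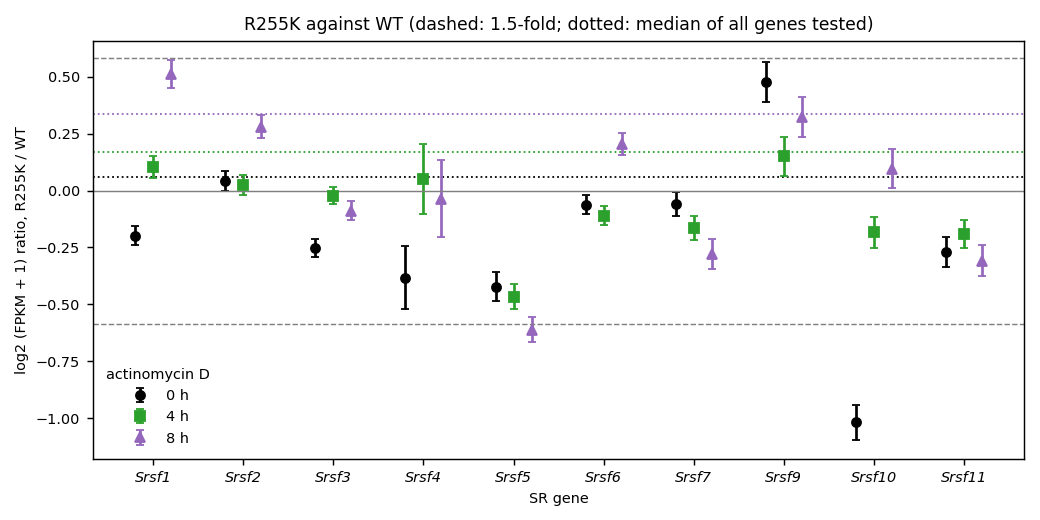
Log2 ratio of FPKM + 1, R255K over WT, for each SR gene at 0 h (circles), 4 h (squares) and 8 h (triangles), with 95% counting intervals, 1.5-fold bounds (dashed) and the median of all genes at each time (dotted). Only Srsf10 at 0 h and Srsf5 at 8 h pass the bounds.

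Transcript decay was read as the share of the 0 h FPKM that was left. FPKM is relative to the library, so a share above 100% marks a transcript that was lost more slowly than the library as a whole. In WT cells, no SR gene was under 50% at 4 h (24.6% of all genes were), and at 8 h Srsf1 was the only one, with 38.0% left (36.5% to 39.6%), beside 39.6% of all genes and 22.0% of genes with at least the mean FPKM of Srsf4. Srsf10 followed with 50.3% (47.5% to 53.2%) and Srsf4 with 53.2% (47.1% to 60.0%). Srsf6, Srsf7 and Srsf2 kept 67.6%, 67.8% and 72.1%, and Srsf3 and Srsf11 kept 89.3% and 98.0%. Srsf9 and Srsf5 ended above their start, at 110% (103% to 118%) and 143% (137% to 148%). The SR median was 69.9% and that of all genes 72.5%.

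In R255K cells 0 of 10 SR genes were under 50% at either time (11.1% of all genes at 4 h, 19.6% at 8 h, and at 8 h 9.23% of those with at least the mean FPKM of Srsf4). Srsf7 had the lowest share at 8 h, with 58.1% (55.7% to 60.5%), followed by Srsf1 with 62.8% (60.7% to 65.0%) and Srsf4 with 68.9% (61.2% to 77.6%). Srsf6, Srsf2, Srsf11, Srsf9 and Srsf3 ranged from 81.5% to 100.2%. Srsf10 ended at 113% (106% to 120%) after 157% at 4 h, and Srsf5 at 125.2% (120% to 131%). The SR median was 90.2% and that of all genes 96.0%. The shares depend on the scaling: with TMM factors the SR medians were 100.5% in WT and 99.04% in R255K, those of all genes 104% and 105%, and Srsf1 in WT was no longer under 50%.

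The ratio of these shares, R255K over WT on the FPKM + 1 scale, exceeded 1.5 at 8 h in Srsf10 (2.17, 2.00 to 2.34) and Srsf1 (1.64, 1.56 to 1.72). These were 2 of 10 SR genes, beside 33.8% of all genes and 24.2% of those with at least the mean FPKM of Srsf4. Both were below 1.5 after GC correction, at 1.26 and 1.11, and Srsf1 also with TMM factors or median of ratios size factors. The ratio was above 1 in 6 of 10 SR genes (63.7% of all genes), and its median was 1.15 (1.19 over all genes). With TMM factors it was above 1 in 2 of 10, and the median was 0.880 (0.986 over all genes). In the lowest GC group, to which 7 SR genes belong, the median over all genes was 1.55. Srsf7 (0.858, 0.809 to 0.909) and Srsf5 (0.878, 0.828 to 0.931) had the lowest ratios, with intervals below 1. With library totals 0 of 10 were below WT by more than 1.5-fold (7.75% of all genes). With TMM factors 1 was, beside 2601 of the 11327 genes tested, and with median of ratios size factors 3 were, beside 3126. After GC correction the lowest ratios were those of Srsf7 (0.569), Srsf5 (0.636) and Srsf11 (0.649). The share of all genes this low after GC correction was not computed, so these values cannot be set beside it. For Srsf10, R255K and WT differed most in the 0 h libraries, which enter every share, and at 8 h its levels were 18.4 and 17.1 FPKM.

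**Figure D5:**
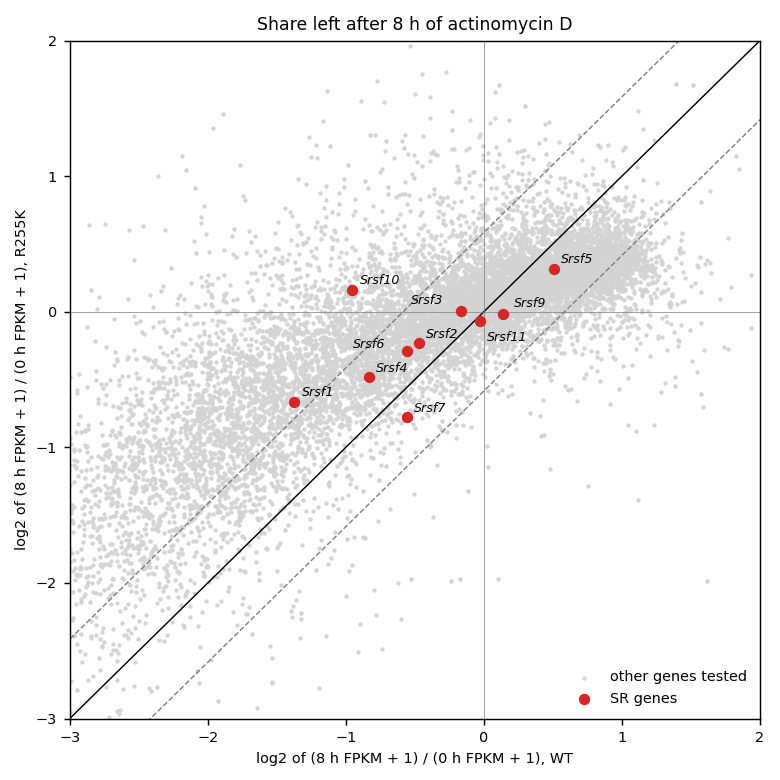
Change from 0 to 8 h of actinomycin D in R255K (y axis) against WT (x axis), as log2 of FPKM + 1 at 8 h over that at 0 h, for SR genes (red) and other genes tested (grey), with the line of equal change and 1.5-fold bounds (dashed). Srsf1 and Srsf10 lie above the upper bound, and Srsf5 lies above 0 in both genotypes.

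Half-lives were taken from the mean of the decay rates over 0 to 4 h and 0 to 8 h, and exist only where this mean was above 0. Among SR genes 5 had a half-life in both genotypes (43.3% of all genes did). Srsf1 had 6.61 h in WT and 14.8 h in R255K, a ratio of 2.23 (1.98 to 2.52). Srsf4 had 7.05 h and 16.7 h, a ratio of 2.37 (1.46 to 3.86). For Srsf2 the values were 31.1 h and 51.3 h, with a ratio of 1.65 (1.07 to 2.55). These 3 were over 1.5, beside 68.9% of all genes with a ratio. Srsf6 had 24.9 h and 34.2 h (1.38, 1.01 to 1.87). Srsf7 went the other way, from 24.9 h to 14.8 h (0.593, 0.458 to 0.767), as 1 of 5 under 0.667 beside 6.02% of all genes. With the 4 h libraries alone, the ratios of Srsf2 and Srsf6 were 0.524 and 0.453, and with the 8 h libraries alone 2.04 and 1.92, so their direction in the mean of both rates was that of the 8 h libraries and turned without them. Over the 4 to 8 h interval alone Srsf4 was at 0.708. With TMM factors 2 SR genes had a half-life in both genotypes, Srsf1 at 1.63 and Srsf4 at 1.70. Srsf1 stayed between 1.36 and 2.48 under the settings tried.

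Ratios of shares left were set beside the peaks, gene by gene and without a test. Of the 3 genes that had lost a peak in R255K, Srsf10 had a ratio of shares left of 2.17, Srsf6 of 1.20 and Srsf5 of 0.878, so both sides of 1 occurred. Of the 3 with an R255K-only peak, Srsf1 was at 1.64, Srsf4 at 1.27 and Srsf9 at 0.899. Srsf3 and Srsf7, with no peak in either list, were at 1.12 and 0.858.

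Genes that act on, with or against SR proteins were described from 5 further lists. The 9 genes for SR protein kinases and nuclear import included SRPK and CLK kinases, which phosphorylate RS domains, and Tnpo3, the importin of SR proteins. At 0 h 0 of 9 were higher and 2 lower past 1.5-fold (17.2% and 14.9% of all genes), with a median log2 ratio of -0.39, and 0 were lower after GC correction. Prpf4b, a kinase of the spliceosome, was at 14.8 FPKM in WT and 6.71 in R255K (-1.03, and -0.54 after GC correction). Clk1 was at 8.65 and 4.12 FPKM (-0.91, and -0.32 after GC correction). Their median share left at 8 h was 22.6% in WT and 63.0% in R255K, below the 69.9% and 90.2% of the SR genes. The ratio of shares exceeded 1.5 in 5 of 9 (33.8% of all genes), with Prpf4b at 3.32 and Srpk2 at 2.25.

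The other RS-domain splicing factors, such as SON and the LUC7-like proteins, counted 27 genes, of which 26 passed the filter. At 0 h 11 were lower and 0 higher past 1.5-fold (14.9% and 17.2% of all genes), and after GC correction 2 were lower (11.1% of all genes). Rsrp1 was at 23.6 FPKM in WT and 10.1 in R255K (-1.15, and -1.07 corrected), and Rbm39 was at 49.0 and 21.9 FPKM (-1.13, and -0.60 corrected). The median share left at 8 h was 47.4% in WT and 85.8% in R255K, and the ratio was over 1.5 in 13 of 26 (33.8% of all genes). Son, a scaffold of nuclear speckles, kept 19.6% in WT and 75.7% in R255K, and Rsrc2 kept 9.15% and 56.5%.

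The hnRNP and PTB family, which often opposes SR proteins at exons, had 26 genes tested. At 0 h 5 were lower and 0 higher (14.9% and 17.2% of all genes), and 1 was lower after GC correction. At 8 h 9 were lower and 1 higher (8.77% and 37.7% of all genes). Ptbp3 was at 13.6 FPKM in WT and 3.18 in R255K at 0 h (-1.80, and -1.20 after GC correction). The median share left at 8 h was 127% in WT and 123% in R255K, and the median ratio of shares was 0.939. Like Srsf5, most hnRNP transcripts ended above their start, 20 of 26 in WT and 22 of 26 in R255K (39.1% and 46.9% of all genes).

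Of 15 genes for NMD and the exon junction complex, 5 were higher and 3 lower at 0 h (17.2% and 14.9% of all genes), and 5 and 2 after GC correction. Magohb, a copy of the junction subunit Magoh, was at 0.901 FPKM in WT and 11.7 in R255K (2.74), and how reads were divided between the near-identical pair is not stated. Smg1, the kinase of UPF1, was at 7.94 and 2.51 FPKM (-1.35). Of 8 genes for export adaptors and m6A reader partners, 2 were higher and 2 lower at 0 h, and 2 and 0 after GC correction. Nxt1, the partner of NXF1, was at 50.6 FPKM in WT and 122 in R255K (1.25), and its share left at 8 h was 2.56% and 49.1%. Ythdc1 was at 7.70 and 5.47 FPKM (-0.43, and 0.32 after GC correction), with 47.0% and 80.4% left at 8 h.

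The mean profile of the 10 SR genes over the 6 libraries was compared with those of 6747 other genes with a mean of at least 5 FPKM. The closest by Pearson r were Mrpl47 (0.995), Fnbp4 (0.995), 1810030O07Rik (0.993), Rpf1 (0.989) and Mettl5 (0.988), over 6 points that share their library scaling. Rpf1 was at 20.3, 16.1 and 6.93 FPKM in WT and at 13.2, 13.2 and 7.42 FPKM in R255K. The SR mean declined less steeply than Rpf1, with centred log2 values of 0.21, 0.15 and -0.22 in WT and 0.00, 0.07 and -0.21 in R255K.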

How the data were processed

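Peak lists and gene counts were those deposited. Per the labels and the study's methods, the authors removed rRNA reads with bowtie2 (2.2.6), aligned to mm10 with hisat2, filtered with Picard (2.16.0) and SAMtools (0.1.09), and ran MACS2 (--nomodel) on the IP with the input as control. The deposited peak columns used hold fold enrichment (a ratio), -log10 q values, and a score of 10 times -log10 q. The deposited counts are raw reads per gene, and the counting tool and annotation are not given in the sources used here. FPKM was computed from the counts, library totals and deposited exon lengths. These lengths equalled the merged exon coordinates deposited with them for 52457 of 52459 genes. Ratios were computed with a pseudocount of 1, and TMM factors with edgeR (4.0.16). Genes with a mean of at least 1 FPKM entered. Peaks were assigned and matched by 1 bp of overlap. GC correction subtracted a lowess trend (span 0.3). Counting intervals for ratios and shares take reads as Poisson. Named genes were the 10 members, members among the 2 to 4 most extreme of each other list by 0 h or half-life ratio, and the 5 closest profiles. Members and lists were chosen with earlier results of these data known. The ratio of shares left was chosen after seeing the data. Scripts were tested on simulated data.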

Additional observations from a re-analysis of the deposited data

Results flagged for a closer look

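In a pair of SR genes the 2 genotypes moved in opposite directions after actinomycin D, relative to the 0 h library of each. Srsf10 stood at 85.8% of its 0 h level at 4 h in WT and at 157% in R255K, and at 8 h at 50.3% and 112.7%. Srsf9 stood at 116% in WT and 92.2% in R255K at 4 h. With 1 library per genotype and time, these differences were not tested.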

How the results depend on the processing

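No paired analysis was possible because each genotype and time had 1 library and each peak list combined its replicates. For the same reason no replicate could be left out. All SR genes past 1.5-fold were lower in R255K. Their count was 1 at 0 h (32.1% of all genes in either direction). It became 0 with GC correction (26.5%) and 2 against the chromosome median (29.7%). At 4 h it was 0 (33.6% of all genes in either direction). It became 1 with TMM factors (33.1%), 1 with median of ratios size factors (33.7%) and 1 against the chromosome median (30.8%). At 8 h it was 1, and became 3 with TMM factors and 4 with median of ratios size factors. Of the 11327 genes tested, 2647 and 3348 were lower in these 2 settings. In WT at 8 h, 1 SR gene was under 50% of its 0 h level (39.6% of all genes). With TMM factors 0 were (31.8%), and with median of ratios size factors 0 were (29.4%). The half-life ratio exceeded 1.5 in 3 of 5 SR genes with a ratio, and in 1 of 5 after GC correction. It did so in 2 of 2 with TMM factors and in 2 of 2 with median of ratios size factors. With the 4 h libraries alone it did so in 2 of 5, with the 8 h libraries alone in 4 of 6, and over the 4 to 8 h interval in 4 of 8. Of all genes with a ratio, 60.2% to 76.6% were over 1.5 in these settings. The ratio of shares left at 8 h exceeded 1.5 in 2 SR genes (33.8% of all genes). It did so in 1 with TMM factors (24.4%), in 1 with median of ratios size factors (22.4%) and in 0 with GC correction (30.8%). With TMM factors 1 and with median of ratios size factors 3 were below WT by more than 1.5-fold, against 0 with library totals. Of the 11327 genes tested, 2601 were with TMM factors and 3126 with median of ratios size factors. After GC correction Srsf5, Srsf7 and Srsf11 were this low, and the share of all genes was not computed. The causes were not tested. The 3 WT peaks without a partner were 3 at a 50% overlap, 2 at -log10 q of at least 5 and 3 with summits required in exons. The 1 kept peak with lower fold enrichment stayed 1 at -log10 q of at least 5 and with -log10 q in place of fold enrichment. No alternative was run for the R255K-only peaks or the motif counts. A pseudocount of 0.1 and the lack of a filter changed no count of SR genes. Srsf4, with 375 to 890 counts, had the widest counting intervals.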
